A study of Homo sapiens with 6 samples.

Results

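The genes described here encode mitotic kinases, kinesins, spindle checkpoint proteins and the other proteins that carry out chromosome segregation and cell division. They were 45 genes taken by symbol from a deposited table of 58735 genes, and all 45 were among the 15694 genes with enough reads to be tested. RNA was sequenced from T84, a human cell line established from colorectal cancer, in 3 libraries with a hairpin RNA against ACSL4 (shACSL4, genotype labelled as an Acsl4 knockdown) and 3 with a control hairpin (shControl, genotype labelled WT). The series design text speaks of a knockout where the sample labels speak of hairpins. The sources used here do not give the number of hairpins or say whether cells were a clone or a pool. Nor do they state that replicates are separate cultures, so p-values measure a spread between these libraries that may be technical.

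Entry into mitosis is driven by CDK1 bound to cyclin A or B, with Polo and Aurora kinases acting beside it. Kinetochores then attach chromosomes to microtubules, and the spindle assembly checkpoint holds the anaphase-promoting complex in check until every chromosome is attached. The complex, with its coactivator CDC20, then marks securin and cyclin B for destruction, which frees separase to cut cohesin, and kinesins and midzone proteins complete the division. Transcripts of most of these genes peak in G2 and mitosis, and their sum in a culture usually follows the share of dividing cells. In bulk RNA, fewer cells in G2 and mitosis and less RNA per such cell cannot be told apart.

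Most of these transcripts were lower in shACSL4 cells. In the quasi-likelihood test of edgeR, with an adjusted p under 0.05 as the threshold, 31 of the 45 genes were lower, 6 were higher and 8 did not pass. Over all genes tested, 23.1% were called lower and 24.0% higher. The median log2 fold change of shACSL4 over shControl was -0.36 over the 45 genes, against 0.01 over all genes tested. Falls of at least 0.5 on the log2 scale were called for 19 of the genes, against 13.4% of all genes tested, and a rise of that size for KIF15 alone, against 15.8% of all genes tested. Libraries of the groups did not overlap for 36 of the genes, 30 of them lower and 6 higher, where 55.1% of all genes tested did not overlap, 26.8% lower and 28.3% higher. Among those 6 were KIF18A and ECT2, which did not pass the test. The summed level of the 45 genes was 4583, 4467 and 4094 CPM (counts scaled to library size) in shACSL4 replicates 1, 2 and 3, against 5367, 5186 and 5212 CPM in shControl replicates 1, 2 and 3. With library size alone as scaling, the median of all genes moved to 0.13 and that of the 45 genes to -0.24, 24 of the 45 were called lower and 8 higher, and 65.6% of all calls were higher in shACSL4, against 50.9% here.

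**Figure D1:**
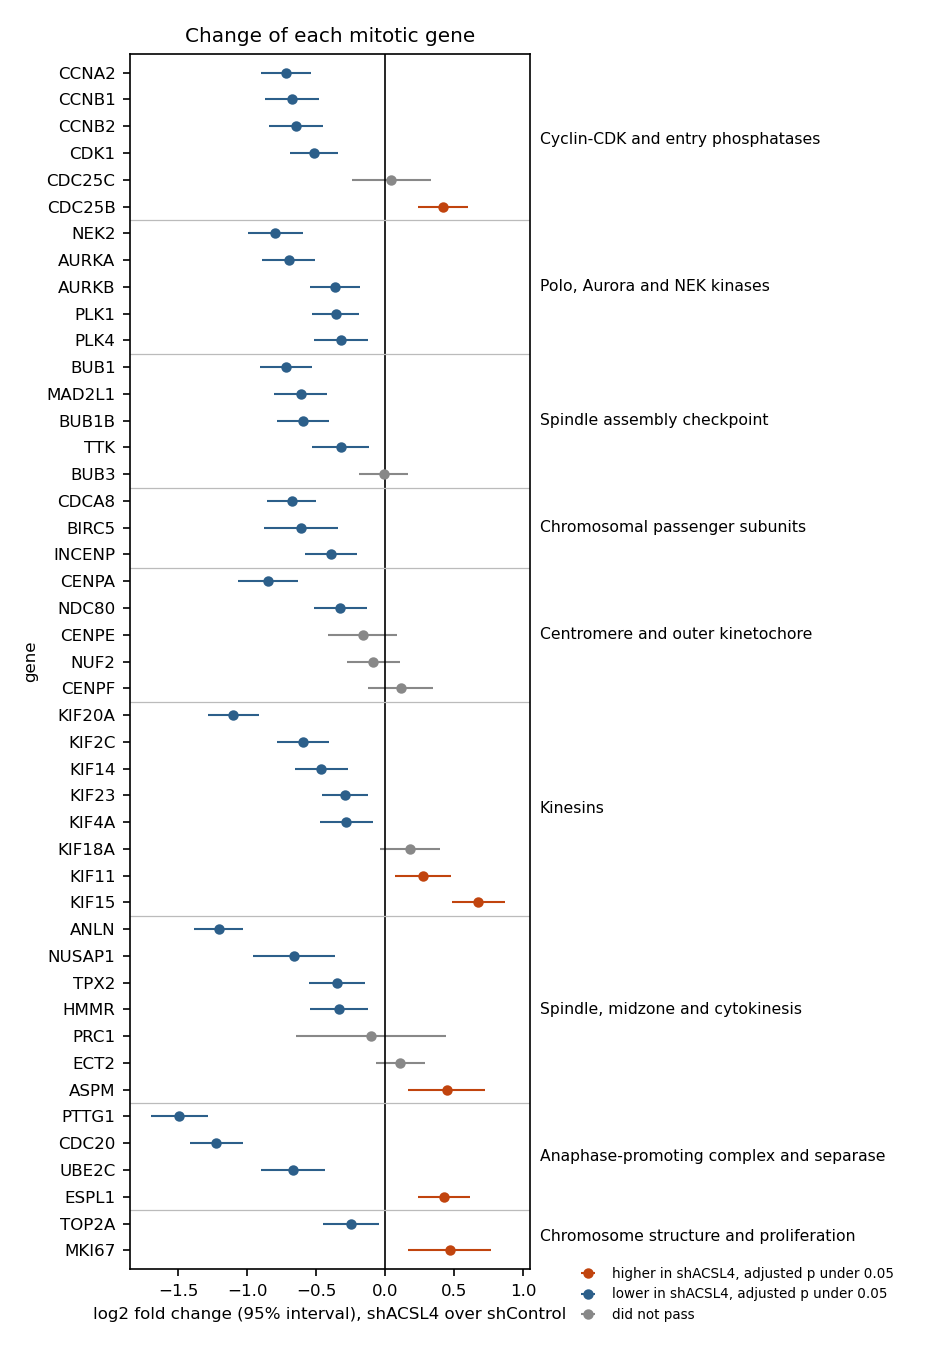
Log2 fold change of shACSL4 over shControl for each of the 45 genes (points) with its 95% interval (lines), grouped by role, with rises in red, falls in blue and genes that did not pass in grey. PTTG1, CDC20, ANLN and KIF20A lie furthest to the left at -1.10 or below, and KIF15 furthest to the right at 0.68.

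ACSL4, which activates long-chain polyunsaturated fatty acids and is the target of the hairpin, stood at 10.3, 9.12 and 11.1 CPM in shACSL4 replicates 1, 2 and 3, against 75.5, 72.2 and 72.0 CPM in shControl replicates 1, 2 and 3 (log2 fold change -2.85, SE 0.103, edgeR adjusted p = 3.57e-12). Totals ranged from 14740383 to 17620630 counts per library, and 3 counts correspond to 0.171 to 0.202 CPM. All 11 colon epithelium markers were measured, and their summed level was 8410 to 9630 CPM in shACSL4 and 7510 to 8720 CPM in shControl. The largest part was KRT8, at a mean of 3030 CPM in shACSL4 and 2130 CPM in shControl. By gene, 5 of the 11 were called higher and 3 lower (72.7% called, against 47.2% of all genes tested). Of 6 leukocyte markers 2 passed the filter on low counts, CD3E had no count in any library, and the sum was 5.02 to 6.52 CPM in shACSL4 and 17.0 to 28.9 CPM in shControl, most of it LYZ. The sum of 8 fibroblast and endothelial markers was 2.95 to 3.35 CPM in shACSL4 and 3.21 to 5.11 CPM in shControl. shControl replicate 2 stood apart from its group. The chi-square per gene between shControl libraries was 12.7 and 15.8 for its pairs with replicates 1 and 3 and 4.76 between those, and its coding genes with over 10 kb of exon lay 0.125 below the mean of all libraries on the log2 scale (median). That measure was 0.173, 0.151 and 0.0189 above it in shACSL4 replicates 1, 2 and 3, and 0.0659 and 0.0671 above it in shControl replicates 1 and 3. shACSL4 replicate 3 also stood apart from its group. The chi-square per gene was 9.19 and 9.81 for its pairs with replicates 1 and 2 and 3.95 between those. The 6 genes with over 8 kb of exon and the comparison by length are given with and without shControl replicate 2. The comparison by length is not given without shACSL4 replicate 3.

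Promoters of many mitotic genes hold a cell cycle genes homology region (CHR), a short element bound by the DREAM and MMB-FOXM1 complexes, and CCAAT boxes bound by NF-Y. The promoters of the 45 genes, known as cell cycle genes, were searched for the CHR letters TTTGAA or TTCGAA and for CCAAT, each on both strands. The search used RefSeq windows (GRCh38.p14) of 250 bases before to 50 bases after a start. Windows were found for 39 of the 45 genes, 51 windows in all, and not for AURKA, BIRC5, BUB3, TPX2, TTK and UBE2C. CHR letters stood in 34 of the 51 windows (66.7%), against 16.4% of the 35116 windows of all genes. CCAAT stood in 37 of them (72.5%), against 34.6% of all windows, and both stood in 27 (52.9%), against 6.38%. By gene, CHR letters were found for 19 of 26 genes called lower, 6 of 6 called higher and 6 of 7 that did not pass. The share over all 27305 genes with a window was 19.5%. Genes moving in either direction thus carried them. A match is a description of the letters and not a binding site.

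The stretches shown are the 120 bases before the RefSeq start of the genes with the largest falls, of both B cyclins, and of 3 genes that were higher, read 5′ to 3′ on the gene's strand, with CHR and CCAAT letters on either strand in capitals. They lie at chr5:160421735-160421854 (PTTG1), chr1:43358861-43358980 (CDC20), chr7:36389742-36389861 (ANLN), chr5:138178992-138179111 (KIF20A), chr5:69167030-69167149 (CCNB1), chr15:59105026-59105145 (CCNB2), chr3:44761674-44761793 (KIF15), chr10:128126424-128126543 (MKI67, minus strand) and chr12:53268179-53268298 (ESPL1), all others on the plus strand of GRCh38.p14.
PTTG1: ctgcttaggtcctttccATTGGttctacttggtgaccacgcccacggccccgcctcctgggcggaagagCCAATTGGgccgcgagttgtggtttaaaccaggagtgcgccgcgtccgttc
CDC20: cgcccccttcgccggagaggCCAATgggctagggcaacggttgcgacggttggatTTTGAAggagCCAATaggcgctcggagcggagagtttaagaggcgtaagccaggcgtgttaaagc
ANLN: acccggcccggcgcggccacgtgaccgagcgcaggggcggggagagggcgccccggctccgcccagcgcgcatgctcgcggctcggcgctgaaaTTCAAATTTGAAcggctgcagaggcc
KIF20A: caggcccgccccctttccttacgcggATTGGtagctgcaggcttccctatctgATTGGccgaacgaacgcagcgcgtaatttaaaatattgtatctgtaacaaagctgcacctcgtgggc
CCNB1: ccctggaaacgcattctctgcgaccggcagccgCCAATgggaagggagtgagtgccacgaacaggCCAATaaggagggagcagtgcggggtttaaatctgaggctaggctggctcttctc
CCNB2: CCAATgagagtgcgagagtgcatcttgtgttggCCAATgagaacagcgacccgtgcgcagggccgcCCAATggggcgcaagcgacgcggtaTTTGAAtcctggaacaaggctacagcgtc
KIF15: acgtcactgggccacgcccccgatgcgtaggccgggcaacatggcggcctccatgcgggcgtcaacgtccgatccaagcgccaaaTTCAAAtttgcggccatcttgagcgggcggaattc
MKI67: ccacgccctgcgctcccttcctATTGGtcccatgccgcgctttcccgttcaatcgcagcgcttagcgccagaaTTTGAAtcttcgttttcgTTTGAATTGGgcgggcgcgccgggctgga
ESPL1: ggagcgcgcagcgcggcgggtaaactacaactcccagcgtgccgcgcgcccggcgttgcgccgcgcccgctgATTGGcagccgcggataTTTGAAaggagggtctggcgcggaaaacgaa
CCNB2 shows 3 CCAAT boxes and a CHR 29 bases before the start, CDC20 shows 2 CCAAT boxes around a CHR at 65 bases, and ANLN shows CHR letters on both strands at 26 and 20 bases with no CCAAT. Of the letters searched, PTTG1, KIF20A and CCNB1 show CCAAT boxes only. Other forms of the CHR were not searched, among them the letters TTTAAA, which each of these stretches holds. The 3 genes shown that were higher hold CHR letters at like distances, at 35 bases in KIF15, 47 and 29 in MKI67 and 31 in ESPL1. Among the called rises not shown, they lie at 28 bases in KIF11 and at 113 in ASPM. In CDC25B they lie at 38 bases, but not in all of its windows. In PTTG1 the letters CCAATTGG hold CCAAT on both strands, and in MKI67 a CHR and a CCAAT box overlap.

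PTTG1 and CDC20, which act at the metaphase to anaphase switch, had the largest falls, with ANLN close to CDC20 and KIF20A next. Of the 4 genes for the anaphase-promoting complex and separase, 3 were lower and 1 was higher. PTTG1 (ENSG00000164611, GRCh38 chromosome 5, 160421822 to 160428744), securin, the inhibitor of separase, stood at 40.5, 36.3 and 42.9 CPM in shACSL4 replicates 1, 2 and 3, against 102, 124 and 112 CPM in shControl replicates 1, 2 and 3. Every shACSL4 library was below every shControl library, and 35.5% of the shControl level remained (log2 fold change -1.49, SE 0.0978, edgeR adjusted p = 3.46e-09). The copies PTTG2 and PTTG3P, which could share its reads, had at most 3 counts in any library. CDC20 (ENSG00000117399, chromosome 1, 43358955 to 43363203), the coactivator of the complex in early mitosis and the target of the checkpoint, stood at 63.9, 67.0 and 60.4 CPM in shACSL4 libraries, against 146, 164 and 137 CPM in shControl libraries. Its groups were also apart (-1.22, SE 0.0912, edgeR adjusted p = 1.63e-08). UBE2C, the E2 enzyme that supplies ubiquitin to the complex, stood at 56.4, 56.4 and 76.5 CPM in shACSL4 libraries, against 94.8, 98.4 and 108 CPM in shControl libraries. shACSL4 replicate 3 was closest to the controls without reaching them (-0.67, SE 0.111, edgeR adjusted p = 1.09e-04). ESPL1, separase itself, went the other way, at 86.6, 90.0 and 82.2 CPM in shACSL4 libraries and 70.2, 58.0 and 64.5 CPM in shControl libraries. Its libraries did not overlap (0.43, SE 0.0905, edgeR adjusted p = 0.00101; 0.35 without shControl replicate 2), so that the inhibitor was lower and the protease it holds was higher at the RNA level.

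Among the genes of the spindle, the midzone and cytokinesis, 4 of 7 were lower, 1 was higher and 2 did not pass. ANLN (ENSG00000011426, chromosome 7, 36389806 to 36453791), anillin, a scaffold of the cleavage furrow, stood at 116, 112 and 106 CPM in shACSL4 libraries, against 255, 249 and 268 CPM in shControl libraries. The libraries within a group lay close together, and 43.3% of the shControl level remained (-1.21, SE 0.0844, edgeR adjusted p = 7.56e-09). NUSAP1, which bundles spindle microtubules, stood at 8.02, 7.41 and 7.72 CPM in shACSL4 libraries, against 12.3, 13.1 and 11.3 CPM in shControl libraries (-0.66, SE 0.14, edgeR adjusted p = 9.38e-04). Of its exon bases, 62.2% are shared with the gene AC087721.2, which had no count in any library, and how reads in shared exons were assigned is not known. TPX2, the activator of Aurora A on spindle microtubules, fell by 0.35 on the log2 scale and HMMR, a spindle-associated protein, by 0.34. ASPM, a spindle pole protein known for its role in brain size, stood at 105, 95.3 and 86.2 CPM in shACSL4 libraries, against 85.0, 52.5 and 72.8 CPM in shControl libraries. The groups were separated only narrowly (0.44, SE 0.132, edgeR adjusted p = 0.0106), shControl replicate 2 was the lowest, and without that library the log2 fold change was 0.27 (edgeR adjusted p = 0.0339). Without shACSL4 replicate 1 ASPM no longer passed (edgeR adjusted p = 0.0537), nor with limma-trend (adjusted p = 0.0586). ECT2, which activates RhoA at the midzone, had a log2 fold change of 0.11 (95% interval -0.07 to 0.29) and did not pass. PRC1, the bundler of midzone microtubules, had only 43, 48 and 35 counts in shACSL4 libraries and 40, 41 and 50 in shControl libraries (-0.10, 95% interval -0.65 to 0.44). AC068831.7, one of the genes that share 58.4% of its exon bases, stood at 12.4, 12 and 12.5 CPM in shACSL4 libraries and 19.2, 14.8 and 20.6 CPM in shControl libraries (-0.57, edgeR adjusted p = 0.00269), and reads of these genes cannot be told apart here.

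**Figure D2:**
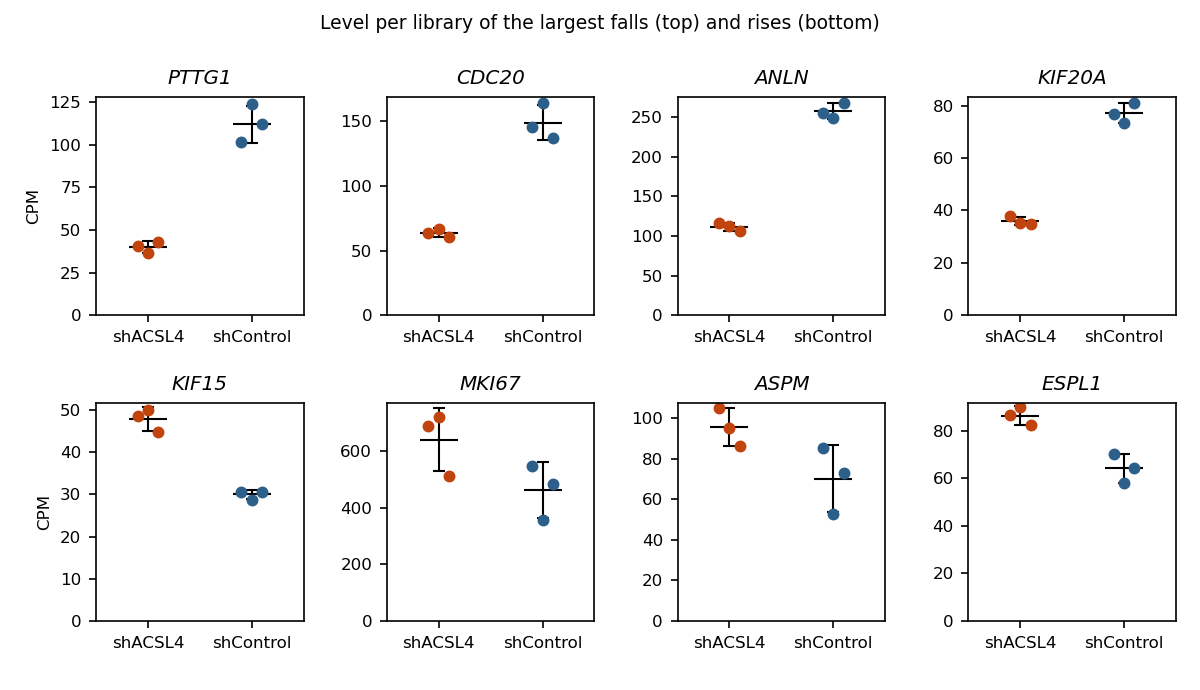
CPM per library (points) with the mean and SD of each group (lines, n = 3) for the 4 largest falls (top) and the 4 largest rises (bottom), shACSL4 left of shControl. The falls stand well apart, from 34.9 to 37.7 CPM in shACSL4 against 73.4 to 81.2 CPM in shControl for KIF20A, while MKI67 overlaps, from 513 to 719 CPM in shACSL4 against 357 to 549 CPM in shControl.

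The kinesins, motors that slide, depolymerise or ride on microtubules, split by gene: 5 of 8 were lower, 2 were higher and 1 did not pass. KIF20A (ENSG00000112984, chromosome 5, 138178719 to 138187715), a motor of the central spindle needed for cytokinesis, stood at 37.7, 35.2 and 34.9 CPM in shACSL4 libraries, against 77.0, 73.4 and 81.2 CPM in shControl libraries (-1.10, SE 0.0872, edgeR adjusted p = 3.45e-08). KIF2C, a depolymerase that corrects faulty attachments, stood at 88.6, 92.6 and 79.1 CPM in shACSL4 libraries, against 127, 140 and 128 CPM in shControl libraries (-0.60, SE 0.0886, edgeR adjusted p = 3.62e-05). The running median of the neighbours of KIF2C was -0.27, relative to which KIF2C had -0.33. The falls of the other 3 were smaller than 0.5 on the log2 scale. KIF14, a partner of the midzone protein PRC1, fell by 0.46, KIF23, the motor subunit of centralspindlin, by 0.29, and the chromokinesin KIF4A by 0.28 on the log2 scale. The retrogene KIF4B, which could share reads with KIF4A, had at most 7 counts in any library.

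KIF15 and KIF11, the pair of plus-end motors that push spindle poles apart, were both called higher. KIF15 (ENSG00000163808, chromosome 3, 44761717 to 44873376) stood at 48.7, 50.1 and 44.7 CPM in shACSL4 libraries, against 30.6, 28.7 and 30.6 CPM in shControl libraries (0.68, SE 0.0917, edgeR adjusted p = 1.51e-05). KIF11, the Eg5 motor, stood at 113, 115 and 91.4 CPM in shACSL4 libraries, against 87.6, 92.1 and 83.9 CPM in shControl libraries, and its groups overlapped because shACSL4 replicate 3 lay below shControl replicate 2 (0.28, SE 0.0959, edgeR adjusted p = 0.0259). KIF18A, which dampens chromosome oscillations, had a log2 fold change of 0.18 (95% interval -0.04 to 0.40) and did not pass. Genes beside KIF15 and KIF11 on their chromosomes were also higher: the running median over 51 neighbouring genes was 0.50 at KIF15 and 0.41 at KIF11. Relative to that median KIF15 had 0.18 (edgeR adjusted p = 0.126) and KIF11 -0.13 (edgeR adjusted p = 0.282). The call of KIF11 was also lost with limma-trend and without shACSL4 replicate 1, shACSL4 replicate 2, shControl replicate 1 or shControl replicate 3.

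All 4 cyclin and CDK genes were lower, while neither CDC25B nor CDC25C was. CCNA2, cyclin A2, stood at 90.4, 85.5 and 81.1 CPM in shACSL4 libraries, against 140, 151 and 132 CPM in shControl libraries (-0.72, SE 0.0866, edgeR adjusted p = 4.37e-06). CCNB1 and CCNB2 encode the mitotic cyclins B1 and B2. CCNB1 stood at 102, 89.4 and 96.8 CPM in shACSL4 libraries, against 147, 170 and 144 CPM in shControl libraries (-0.68, SE 0.0916, edgeR adjusted p = 1.49e-05). CCNB2 stood at 94.8, 86.5 and 92.6 CPM in shACSL4 libraries, against 133, 160 and 136 CPM in shControl libraries (-0.65, SE 0.0921, edgeR adjusted p = 2.44e-05). In all 3 genes shControl replicate 2 was the highest library and no shACSL4 library reached the controls. CDK1, their kinase, stood at 114, 112 and 124 CPM in shACSL4 libraries, against 162, 172 and 167 CPM in shControl libraries (-0.52, SE 0.0834, edgeR adjusted p = 8.73e-05). It fell in a stretch of chromosome 10 whose running median was 0.43, and relative to these neighbours its log2 fold change was -0.94 (edgeR adjusted p = 1.52e-07). CDC25B, a phosphatase that activates CDK1 at the start of mitosis, stood at 266, 270 and 242 CPM in shACSL4 libraries, against 194, 201 and 186 CPM in shControl libraries (0.42, SE 0.0853, edgeR adjusted p = 6.96e-04), and relative to its neighbours at 0.26 (edgeR adjusted p = 0.0193). Its relative CDC25C did not pass, with a log2 fold change of 0.04 (95% interval -0.25 to 0.33).

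The Polo, Aurora and NEK kinases were all lower, 5 of 5. NEK2, a centrosome kinase that helps the poles to separate, stood at 27.4, 24.4 and 27.7 CPM in shACSL4 libraries, against 47.7, 46.9 and 43.6 CPM in shControl libraries (-0.80, SE 0.0951, edgeR adjusted p = 3.88e-06). AURKA, Aurora A, the kinase of the spindle poles, stood at 75.4, 77.6 and 64.1 CPM in shACSL4 libraries, against 117, 123 and 113 CPM in shControl libraries (-0.70, SE 0.0913, edgeR adjusted p = 9.76e-06). The other 3 fell by less: AURKB, Aurora B of the chromosomal passenger complex, by 0.37, PLK1, the main mitotic Polo kinase, by 0.36, and PLK4, which starts centriole duplication, by 0.32 on the log2 scale. PLK4 did not pass with library size alone (edgeR adjusted p = 0.0944) or without shACSL4 replicate 2.

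**Figure D3:**
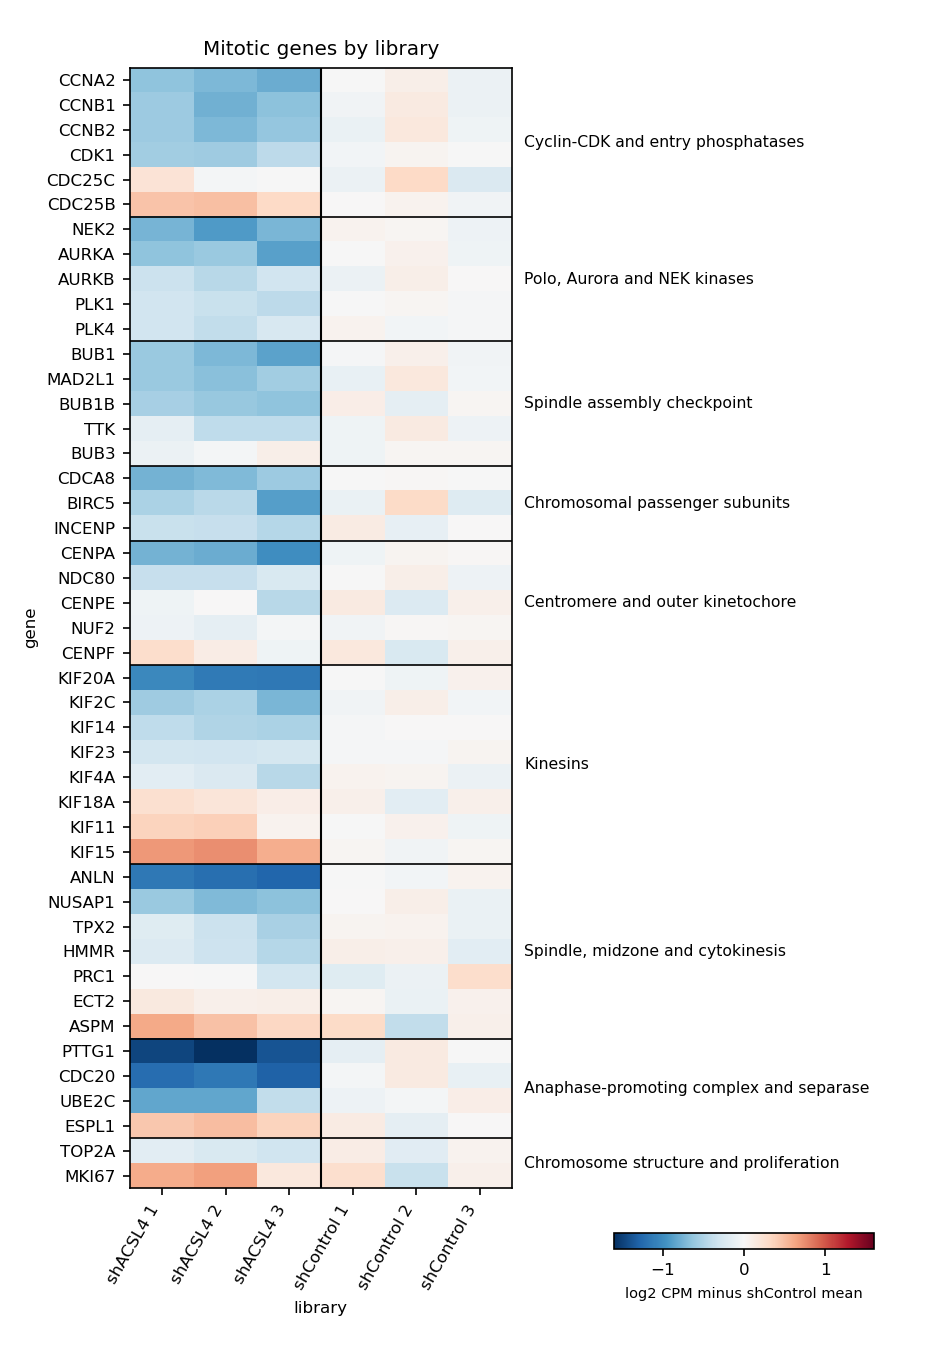
Log2 CPM of each of the 45 genes (rows, grouped by role) in each library (columns, shACSL4 left of shControl) minus the gene's shControl mean, blue below and red above. The 31 genes called lower are blue in the shACSL4 columns, ESPL1 and CDC25B are red in all 3 of them, and MKI67 and ASPM are blue in shControl replicate 2.

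The spindle assembly checkpoint genes were lower except for BUB3, 4 of 5. BUB1, the kinase that recruits the checkpoint to kinetochores, stood at 74.8, 68.6 and 62.4 CPM in shACSL4 libraries, against 111, 120 and 109 CPM in shControl libraries (-0.72, SE 0.0899, edgeR adjusted p = 6.16e-06). MAD2L1 (MAD2), which binds and blocks CDC20, stood at 72.9, 69.5 and 75.1 CPM in shACSL4 libraries, against 102, 124 and 107 CPM in shControl libraries (-0.61, SE 0.0914, edgeR adjusted p = 3.93e-05). BUB1B (BUBR1), a further subunit of the inhibitory complex, stood at 68.9, 65.6 and 63.6 CPM in shACSL4 libraries, against 107, 90.1 and 102 CPM in shControl libraries (-0.60, SE 0.0893, edgeR adjusted p = 4.02e-05). None of these groups overlapped. TTK (MPS1), the kinase at the top of the checkpoint, fell by 0.32 on the log2 scale, a call lost with library size alone (edgeR adjusted p = 0.0905) and without shACSL4 replicate 2. BUB3, which also has roles outside mitosis, had a log2 fold change of -0.01 (95% interval -0.19 to 0.17), and of 0.00 without shControl replicate 2.

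The 3 chromosomal passenger subunits measured beside AURKB were lower as well. CDCA8 (borealin) stood at 60, 61.7 and 67.4 CPM in shACSL4 libraries, against 100, 103 and 100 CPM in shControl libraries (-0.68, SE 0.0837, edgeR adjusted p = 5.53e-06). BIRC5 (survivin) stood at 97.3, 102 and 75.3 CPM in shACSL4 libraries, against 129, 171 and 120 CPM in shControl libraries, with more spread in both groups but no overlap (-0.61, SE 0.128, edgeR adjusted p = 8.97e-04). INCENP, the scaffold of the complex, fell by 0.40 on the log2 scale. Neighbours of CDCA8 and BIRC5 were lower too, with running medians of -0.44 and -0.36. Relative to these, CDCA8 had -0.24 (edgeR adjusted p = 0.0295) and BIRC5 -0.25 (edgeR adjusted p = 0.12).

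At the centromere and outer kinetochore 2 of 5 genes were lower and 3 did not pass. CENPA, the histone H3 variant that marks centromeres, stood at 21.4, 20.9 and 18.3 CPM in shACSL4 libraries, against 34.8, 37.7 and 36.8 CPM in shControl libraries (-0.85, SE 0.103, edgeR adjusted p = 4.69e-06). NDC80, which grips microtubules, fell by 0.33 on the log2 scale. The running median of its neighbours was -0.35, relative to which it had 0.02 (edgeR adjusted p = 0.905). NUF2, its partner in the same complex, had -0.09 (95% interval -0.28 to 0.11), the kinetochore motor CENPE -0.16 (95% interval -0.41 to 0.08) and the large kinetochore protein CENPF 0.11 (95% interval -0.12 to 0.35). Without shControl replicate 2, CENPE had -0.27 (edgeR adjusted p = 0.0547) and CENPF -0.01 (edgeR adjusted p = 0.954).

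The 2 remaining genes, TOP2A and MKI67, are common proliferation markers, and they moved in opposite directions with overlapping groups. TOP2A, the topoisomerase that untangles sister chromatids, stood at 317, 299 and 284 CPM in shACSL4 libraries, against 387, 314 and 370 CPM in shControl libraries. shControl replicate 2 lay below shACSL4 replicate 1. The log2 fold change was -0.25 (SE 0.0955), and -0.34 without shControl replicate 2 (edgeR adjusted p = 0.00319). The call of TOP2A was lost with library size alone and without any single library other than shControl replicate 2. MKI67 (ENSG00000148773, chromosome 10, 128096659 to 128126385), the Ki-67 protein that coats mitotic chromosomes, stood at 690, 719 and 513 CPM in shACSL4 libraries, against 549, 357 and 483 CPM in shControl libraries. The library highest among the controls lay above shACSL4 replicate 3. Its log2 fold change was 0.47 (SE 0.143, edgeR adjusted p = 0.0124), and 0.31 without shControl replicate 2 (edgeR adjusted p = 0.0471). MKI67 did not pass with DESeq2 (adjusted p = 0.0873), with limma-trend (adjusted p = 0.0622), or without shACSL4 replicate 1 (edgeR adjusted p = 0.0513) or 2 (edgeR adjusted p = 0.0727). The running median of its neighbours was 0.46, relative to which its own change was 0.00. The authors' deposited table gives an adjusted p of 0.112 for MKI67 and, at the same threshold, 31 of the 45 genes lower and 5 higher.

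The direction of change also differed with exon length. Of the 21 genes with under 4 kb of merged exon, 19 were lower and none higher, while of the 6 with over 8 kb none was lower and 3 were higher (ASPM, ESPL1 and MKI67). The 18 between held 12 lower and 3 higher. Calls of all genes were not counted by length, and over all lengths 23.1% of genes tested were lower and 24.0% higher. The median log2 fold change of the mitotic genes was -0.68 from 2 to 3 kb (9 genes), -0.43 from 3 to 4 kb (10), -0.32 from 4 to 5 kb (9), -0.29 from 5 to 8 kb (9) and 0.45 over 10 kb (3), where the medians of all coding genes were -0.03, -0.04, 0.01, 0.02 and 0.11. Without shControl replicate 2 the mitotic genes' medians in these bins were -0.67, -0.38, -0.27, -0.34 and 0.27, so that over 10 kb the median was smaller and from 5 to 8 kb it lay below that from 4 to 5 kb. The counts of genes called lower and higher under 4 kb, between and over 8 kb were as above. The 2 mitotic genes under 2 kb had a median of -0.76 and the 3 from 8 to 10 kb one of -0.01, against -0.105 and 0.003 for coding genes. Without shControl replicate 2 the medians of these mitotic genes were -0.76 and 0.002. Spearman's rho between log2 fold change and exon length was 0.622 across the 45 genes, 0.485 across the 39 of at most 8 kb, 0.23 across the 168 genes of other cell cycle lists described below, and 0.0858 across 12603 coding genes. Without shControl replicate 2 it was 0.563 across the 45 and 0.0327 across the coding genes, and after a smooth trend with length over all genes was removed it was 0.59 across the 45, with the same 31 calls lower. These rho values are descriptions across genes that share 6 libraries.

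**Figure D4:**
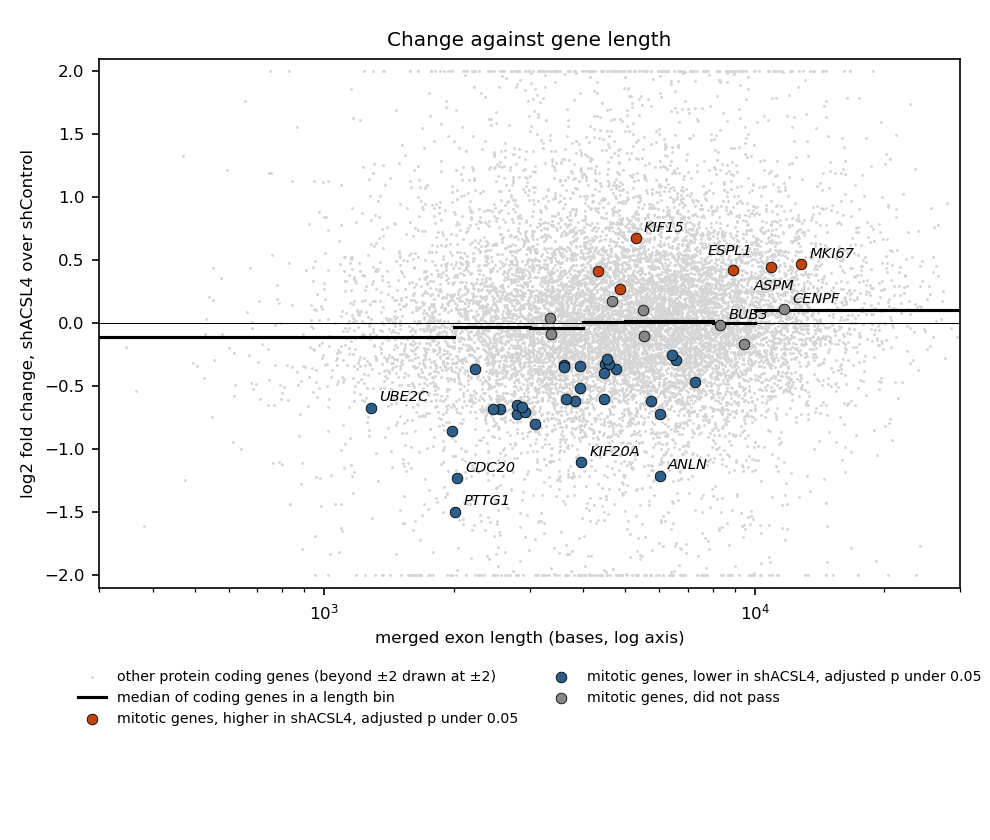
Log2 fold change of shACSL4 over shControl against merged exon length in bases (log axis) for the 45 genes (large points, coloured by call) and other protein coding genes (small grey points), with the median of coding genes in each length bin (bars). The falls of PTTG1 and CDC20 lie near 2 kb, while ESPL1, ASPM and MKI67 lie above 8 kb among the rises. ANLN fell by 1.21 with 6012 bases of exon.

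Levels were compared between genes on the authors' FPKM, which divides by gene length. The highest in shControl were TPX2 at 78.1 ± 5.27, UBE2C at 77.5 ± 4.63 and CDC20 at 72.7 ± 7.13 FPKM, and these neighbours in the order lay within their spread (SD, n = 3 each). In shACSL4 cells TPX2 stood at 60.8 ± 6.84, CDC25B at 59.1 ± 3.51 and MKI67 at 49.3 ± 8.63 FPKM, while CDC20 stood at 30.8 ± 1.65 FPKM (SD, n = 3 each). PTTG1 averaged 19.5 ± 1.6 FPKM in shACSL4 cells and 55.5 ± 5.54 FPKM in shControl cells (SD, n = 3 each). The lowest was PRC1, at 0.458 FPKM in shACSL4 and 0.498 FPKM in shControl. As 58.4% of its exon bases are shared with other genes, its level depends on how shared reads were assigned, which is not known. Across the 45 genes Spearman's rho between the log2 fold change and the FPKM in shControl was -0.477, a description in which the shControl libraries enter both measures.

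Paralogs and partners were compared as log2 ratios of their CPM within a library, for 7 pairs, with an exact two-sided permutation test over 3 against 3 libraries, whose smallest possible p is 0.1. The ratio of AURKA to AURKB was 0.241 ± 0.209 in shACSL4 and 0.582 ± 0.0838 in shControl (SD, n = 3 each; exact permutation p = 0.1, adjusted over the 7 pairs 0.175). The groups also did not overlap, with the same p values, for NDC80 to NUF2 (0.201 ± 0.039 in shACSL4, 0.441 ± 0.106 in shControl), for KIF15 to KIF11 (-1.15 ± 0.0996 in shACSL4, -1.55 ± 0.116 in shControl) and for CDC25B to CDC25C (3.55 ± 0.138 in shACSL4, 3.19 ± 0.235 in shControl). CCNB1 to CCNB2 differed by -0.0305 between groups (exact permutation p = 0.4), BUB1 to BUB1B by -0.13 (exact permutation p = 0.5) and PLK1 to PLK4 by -0.0412 (exact permutation p = 0.6).

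Other cell cycle genes were read from 11 lists chosen by function, 168 genes that were tested. Of these 45 were lower and 34 higher, 47.0% called against 47.2% of all genes tested, with a median log2 fold change of -0.06. With library size alone as scaling the balance was the other way, 31 lower and 46 higher. Of 18 genes for other spindle, centrosome and cytokinesis proteins 9 were lower and none higher (1 higher without shControl replicate 2). SPAG5 (astrin, a spindle protein) fell by 0.94, DLGAP5, which stabilises kinetochore fibres, by 0.76 and KNSTRN, a partner of SPAG5, by 0.65 on the log2 scale. Of 10 other regulators of entry 4 were lower and none higher, among them CKS2 (-0.94) and CKS1B (-0.70), small partners of CDKs, and the phosphatase CDC25A (-0.83). Inner kinetochore genes had 7 of 20 lower and 2 higher, with HJURP, the chaperone that loads CENPA, at 86.3 ± 1.78 CPM in shACSL4 and 144 ± 4.08 CPM in shControl (SD, n = 3 each; -0.74, edgeR adjusted p = 1.50e-06). Of 6 other kinesins 2 were lower (KIF18B -0.53, KIFC1 -0.44) and 2 higher, among them KIF24 (0.80).

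The remaining lists were mixed. APC/C subunits and cofactors had 5 of 17 lower and 5 higher, with CDC26 at -1.18 and ANAPC11 at -0.76. Cohesin and its regulators had 4 of 15 lower and 5 higher, with STAG1, a cohesin subunit, at 1.22 and MAU2, part of the cohesin loader, at 1.17. Condensin had 2 of 8 lower and 3 higher, other outer kinetochore genes 1 of 18 lower and 4 higher, G1 genes 5 of 15 lower and 5 higher, and DNA replication genes 5 of 22 lower and 1 higher. Of 19 transcription regulators of the cell cycle, among them E2F, TFDP, LIN and RB family genes, 7 were higher and 1 lower, with a median of 0.17. Called were 42.1% of this list, against 47.2% of all genes tested (24.0% higher and 23.1% lower). FOXM1, an activator of mitotic gene promoters, stood at 170 ± 11 CPM in shACSL4 and 137 ± 7.71 CPM in shControl (SD, n = 3 each; 0.31, edgeR adjusted p = 0.0077). MYBL2 did not pass (0.22, edgeR adjusted p = 0.0575), and RBL1, the repressor p107 of the DREAM complex, was at 0.74. Neighbouring genes were higher too, with running medians of 0.28 at FOXM1, 0.24 at MYBL2 and 0.23 at RBL1. Without shACSL4 replicate 1, 22 of the 168 genes were called higher, and without that library 4 of the 19 transcription regulators were, against 3 of them with limma-trend. With library size alone the outer kinetochore genes had 8 higher and none lower, condensin none lower, the cohesin list 6 higher and 2 lower, the G1 genes 7 higher and 3 lower, and the DNA replication genes 2 higher and 1 lower. Relative to neighbouring genes the APC/C list had 1 higher and 4 lower, and the DNA replication genes 2 higher and 8 lower. Smaller counts also moved with a library left out. The 5 APC/C rises were 3 without shACSL4 replicate 1, shACSL4 replicate 2 or shControl replicate 3. The 5 cohesin rises were 2 without shACSL4 replicate 1 and 3 without shACSL4 replicate 2 or shControl replicate 2, and the 4 cohesin falls were 2 without shACSL4 replicate 3. The 2 condensin falls were 0 without shControl replicate 1 and 1 without shACSL4 replicate 2 or 3, the 1 outer kinetochore fall was 0 without shACSL4 replicate 1, shACSL4 replicate 2 or shControl replicate 2, and the 1 rise in DNA replication genes was 0 without shACSL4 replicate 1, shControl replicate 2 or shControl replicate 3. The 5 falls in G1 genes were 3 without shACSL4 replicate 1, and the 5 falls in DNA replication genes 2 without shACSL4 replicate 2.

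**Figure D5:**
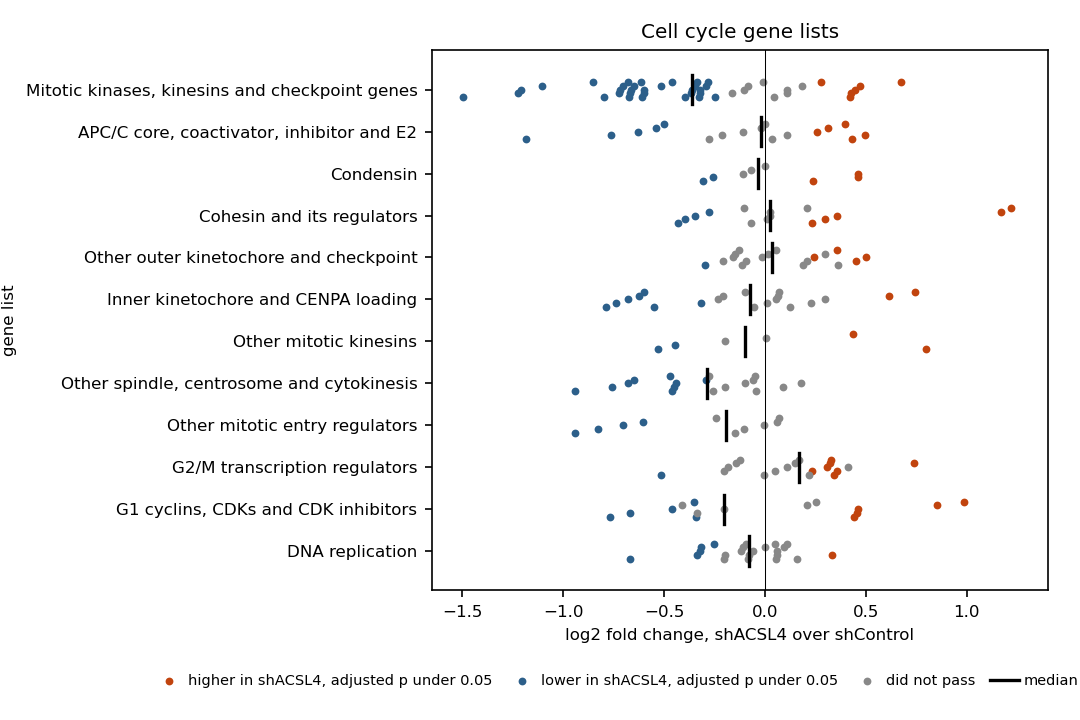
Log2 fold change of shACSL4 over shControl for each tested gene (points) of the 45 mitotic genes and of 11 other cell cycle lists (rows), with rises in red, falls in blue, genes that did not pass in grey and each list's median as a black bar. The mitotic genes have the lowest median at -0.36. The list labelled G2/M transcription regulators, which also holds E2F and RB family genes, has the highest at 0.17.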

How the data were processed

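RNA from 6 T84 libraries was sequenced after removal of ribosomal RNA, per the labels' protocols. CASAVA, HISAT2 and GRCh38 (hg38) are named in the submitters' processing notes. The counting tool and strand setting are not given in sources used here, and so reads of overlapping or antisense genes cannot be separated. The authors deposited raw counts, FPKM, a mean signal per group, log2 fold changes and p-values per gene, per the file headers. Columns headed NC were taken as shControl, the only group beside shACSL4. Counts were tested with edgeR 4.0.16 (quasi-likelihood, limma 3.58.1, R 4.3.3) after filterByExpr and TMM, without covariates, with Benjamini-Hochberg adjustment over 15694 genes. CPM uses TMM-scaled library sizes. The fit was tested on simulated data. The median over 51 neighbouring genes was subtracted without its own error, which p-values relative to neighbours leave out.

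The 45 genes and the other lists were chosen with earlier results of these data known. Values per library are given for called genes with an absolute log2 fold change of at least 0.5 and for called rises, and from each other list at most 3 called genes, those of smallest adjusted p, could be named. Genes singled out beyond this rule were chosen after their values were seen. Alternatives were DESeq2 1.42.0, limma-voom, limma-trend on log2(FPKM + 1), no filter, median-of-ratios scaling, library size alone, a mean of at least 50 counts, a replicate block, each library left out and neighbours, and, added after seeing the data, removal of the length trend. Intervals cover the spread between these libraries, and limits from 3 counts cover counting error only.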

Additional observations from a re-analysis of the deposited data

How the results depend on the processing

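Of the 31 falls, 23 were called in each of 16 alternatives, and of the 6 rises 2 were (CDC25B and ESPL1). The count of falls was 31 with DESeq2, 24 under library size alone, 28 relative to neighbours, and 28 to 31 with 1 library left out. The count of rises was 3 with limma-trend and 3 to 6 with 1 library left out, and that of rises in the other lists 22 to 35, and 46 under library size alone. The median log2 fold change of the 45 genes was -0.24 under library size alone and -0.29 relative to neighbours, against a spread between libraries of 0.0591. Relative to neighbouring genes the sign turned for NDC80 (0.019) and KIF11 (-0.13), a comparison set by the neighbours' own changes. Calls of KIF4A and HMMR were lost with library size alone, relative to neighbours and without shControl replicate 1, KIF4A also without shACSL4 replicate 3, and that of KIF23 with library size alone. BUB3 was called relative to neighbours, KIF18A there and with library size alone, and ECT2 with library size alone. Same-numbered libraries deviated together with r of 0.0623, -0.00128 and 0.00753, so the numbers were not taken as pairs, and the replicate block gave 31 falls and 6 rises. With 3 libraries a group, small changes such as those of the 8 genes that did not pass are not separable from none, and PRC1, with at most 50 counts in any library, has a wide interval. With no filter 34061 genes were tested, and PRC1 was not tested where a mean of at least 50 counts was required.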
